A study of Mus musculus with 14 samples.

Results

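The nuclear genome encodes most subunits of the mitochondrial respiratory chain and of ATP synthase, and the 89 genes described here carry symbols of those subunits. Not all of them are subunits: the symbols also take in, for example, the pseudogene entry Cox5b-ps and the ATPase inhibitor Atp5if1. They were chosen by symbol: every gene that starts with Ndufa, Ndufb, Ndufc, Ndufs, Ndufv, Uqcr, Cox4i, Cox5, Cox6, Cox7, Cox8 or Atp5, plus Sdha, Sdhb, Sdhc, Sdhd and Cyc1, without the assembly factors that start with Ndufaf. They make up 89 of the 21138 genes counted: 37 of complex I, 4 of complex II, 9 of complex III, 21 of complex IV and 18 of complex V. RNA was measured with Smart-seq2 in 648 single mouse cells, and the expression unit is CPM, a gene's counts scaled to a common library total. The animals of 9 samples were syngeneic female C57BL/6J mice aged 6 to 8 weeks injected with B16F10 cells that carried a fluorescent label, and given no drug; B16F10 is a mouse melanoma line from the C57BL/6J background. From their blood and lung, cells were sorted by tumor and host markers as circulating tumor cells (CTC), white blood cells (WBC) and a class labelled DP, whose abbreviation the labels do not spell out. Replicates 1 to 6 hold several classes and replicates 7 to 9 hold DP cells only. Another 5 samples are controls of 1 sample each: the cultured B16F10 line, and samples named CDP, Duplike, PltLike and naive WBC, which are labelled as naive female C57BL/6J of the same age. The study asked, by its title, what the genomes of candidate tumor-leukocyte hybrid cells are; the comparisons below give the RNA levels of the respiratory genes in the sorted classes.

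Complexes I and II take electrons from NADH and succinate and pass them to ubiquinone, complex III hands them to cytochrome c, and complex IV reduces oxygen. Complexes I, III and IV pump protons across the inner membrane, and complex V uses that gradient to make ATP. Complex II is the only one of them without a subunit encoded by mitochondrial DNA and is also an enzyme of the citric acid cycle. Nuclear respiratory factor 1 (NRF1), factors of the ETS family (GABP, also called NRF2) and YY1 are known to bind the promoters of many of these genes, and some subunits of complex IV exist as isoforms known mainly from muscle, testis or hypoxic cells.

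Promoter sequence was available for 70 of the 89 genes (RefSeq, assembly GRCm38.p6, from 250 bases before to 50 bases after the start), and 4 stretches are shown because they stand for the main results: the complex II subunits Sdha and Sdhb, which differed strongly between tumor and white blood cells, the common complex IV isoform Cox6a1, and the muscle-type isoform Cox7a1. Capitals mark the NRF1 letters GCGCANGCG on either strand; each sequence runs 5′ to 3′ on the gene's strand.
Sdha: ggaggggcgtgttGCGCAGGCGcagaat
Sdhb: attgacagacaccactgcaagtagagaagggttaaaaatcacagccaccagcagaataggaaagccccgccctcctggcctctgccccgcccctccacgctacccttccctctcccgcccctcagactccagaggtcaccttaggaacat
Cox6a1: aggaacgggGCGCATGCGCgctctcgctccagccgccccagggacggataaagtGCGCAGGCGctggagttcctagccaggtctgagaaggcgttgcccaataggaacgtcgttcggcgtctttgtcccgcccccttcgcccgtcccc
Cox7a1: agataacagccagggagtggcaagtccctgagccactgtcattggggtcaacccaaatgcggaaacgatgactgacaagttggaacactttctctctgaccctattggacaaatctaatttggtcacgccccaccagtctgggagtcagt
The Sdha stretch (chr13:74350281-74350308, minus strand) lies 68 to 41 bases before the start, and the Cox6a1 stretch (chr5:115348982-115349129, minus strand) lies 171 to 24 bases before it and holds 3 matches, of which the first and second overlap. The Sdhb stretch (chr4:140961053-140961202, plus strand) and the Cox7a1 stretch (chr7:30183994-30184143, plus strand) hold none. NRF1 letters were present in 20 of the 70 promoters (28.6%) and in 6.47% of all 27025 promoters of the same length. The ETS letters CCGGAAG were present in 16 of 70 (22.9%) against 9.12% of all, and the YY1 letters AANATGGCG in 9 of 70 (12.9%) against 2.51%. NRF1 or ETS letters stood in 30 of 70 (42.9%) against 14.3%. The SP1 letters GGGCGG were in 30 of 70 (42.9%) against 35.9%, and the letters TATAAA in 8 of 70 (11.4%) against 14.2%. All motifs were searched on both strands, and a match is a description of the letters only. Of the 4 seldom detected isoforms with a promoter in the set, none held NRF1, ETS or YY1 letters.

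The sorted labels were checked against marker genes, and each cell was called tumor-high where its mean log2(CPM + 1) over 14 melanocyte genes exceeded that over 14 pan-leukocyte genes, and tumor-low otherwise. This cut was drawn on other genes than the respiratory ones; it divided the cells into 413 tumor-high and 235 tumor-low, with 17 cells within 1 log2 unit of it. In all, 12 cells, 10 of them from lung, were tumor-high by this cut but clustered with the tumor-low cells; their median scores were low for both lists (2.63 for melanocyte and 0.797 for pan-leukocyte genes). All 43 CTC were tumor-high and the DP class held both kinds, 279 tumor-high and 171 tumor-low cells. Of the sorted WBC, 3 lung cells were tumor-high and are left out of the 43 WBC described by state. All cells of the CDP, Duplike and PltLike controls were tumor-high although they are labelled as cells of naive mice, so they are called by their labels only. Melanocyte genes summed to a median of 24199 CPM in CTC sums and 197 CPM in WBC sums, and pan-leukocyte genes to 56.2 and 12987 CPM. The WBC sums differed in make-up: their monocyte and macrophage genes ranged from 15535 to 176547 CPM, their neutrophil genes from 0.445 to 20499 CPM and their B-cell genes from 0.277 to 11244 CPM, and the part of this in the spread of WBC values was not tested. Counts were summed over the cells of a class, state, tissue and sample (at least 2 cells), and levels were averaged over tissues within a sample and then over samples: 5 samples for CTC, 8 for tumor-high DP, 9 for tumor-low DP and 6 for WBC. Total counts per cell ran from 0.0205 to 104 Mcounts (mega-counts) with a median of 15.8 Mcounts, and the median was lower in WBC (4.04 Mcounts in blood, 5.89 in lung) than in CTC (18.3 in blood, 29.6 in lung). Libraries of few cells stood apart: the lung tumor-high DP sums of replicates 1, 2 and 3 hold 7 cells together. In replicates 1 and 2 those sums carried only 523 and 577 CPM of melanocyte markers and 23884 and 13086 CPM over 10 fibroblast, endothelial and epithelial markers, whereas no other tumor-high DP sum exceeded 1033 CPM of the latter. Several results that rest on these 3 sums are given with and without them, and all other tumor-high DP values include them. No 2 cells had identical counts. The labels do not say whether the samples are separate animals, so every p-value measures only the spread between these samples. Each sample carries a batch label of its own, which all its classes share.

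Respiratory genes took more than 2 times the share of all counts in tumor cells that they took in white blood cells. The share was 3.36% ± 0.206 (SD, n = 5 samples) in CTC and 1.29% ± 0.190 (SD, n = 6) in WBC. In the CTC of replicates 1, 2, 3, 5 and 6 it was 3.56%, 3.14%, 3.25%, 3.27% and 3.60%, and the WBC samples ran from 1.09% to 1.63%, so the groups did not overlap. DP cells divided in the same way by their tumor-high or tumor-low state: 3.12% ± 0.321 (SD, n = 8; range 2.64% to 3.56%) in tumor-high and 1.49% ± 0.0975 (SD, n = 9; range 1.35% to 1.64%) in tumor-low DP. Without the 3 lung sums of few cells, which held 2.0% to 2.42%, the tumor-high DP share was 3.32% ± 0.118 (SD, n = 8). For each complex the means fell in the order CTC, tumor-high DP, tumor-low DP and WBC, except that without the 3 lung sums complex II took 0.259% in tumor-high DP, beside 0.258% in CTC. Without those sums the tumor-high DP shares were 0.877% for complex I, 0.415% for complex III, 0.617% for complex IV and 1.15% for complex V. Complex V took 1.16% of counts in CTC, 1.05% in tumor-high DP, 0.481% in tumor-low DP and 0.427% in WBC. For complex I the same shares were 0.896%, 0.847%, 0.443% and 0.379%, and for complex IV 0.635%, 0.617%, 0.335% and 0.297%. Complex II, with 4 genes, was the most unequal: 0.258% in CTC, 0.222% in tumor-high DP, 0.0678% in tumor-low DP and 0.0522% in WBC. Transcripts of the mitochondrial genome had closer shares, with 3.46% in CTC, 3.47% in tumor-high DP, 3.13% in tumor-low DP and 2.60% in WBC. The 20 most abundant genes of each sum took 13.4% of counts in CTC and 18.7% in WBC; their part in the difference of shares was not tested.

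**Figure D1:**
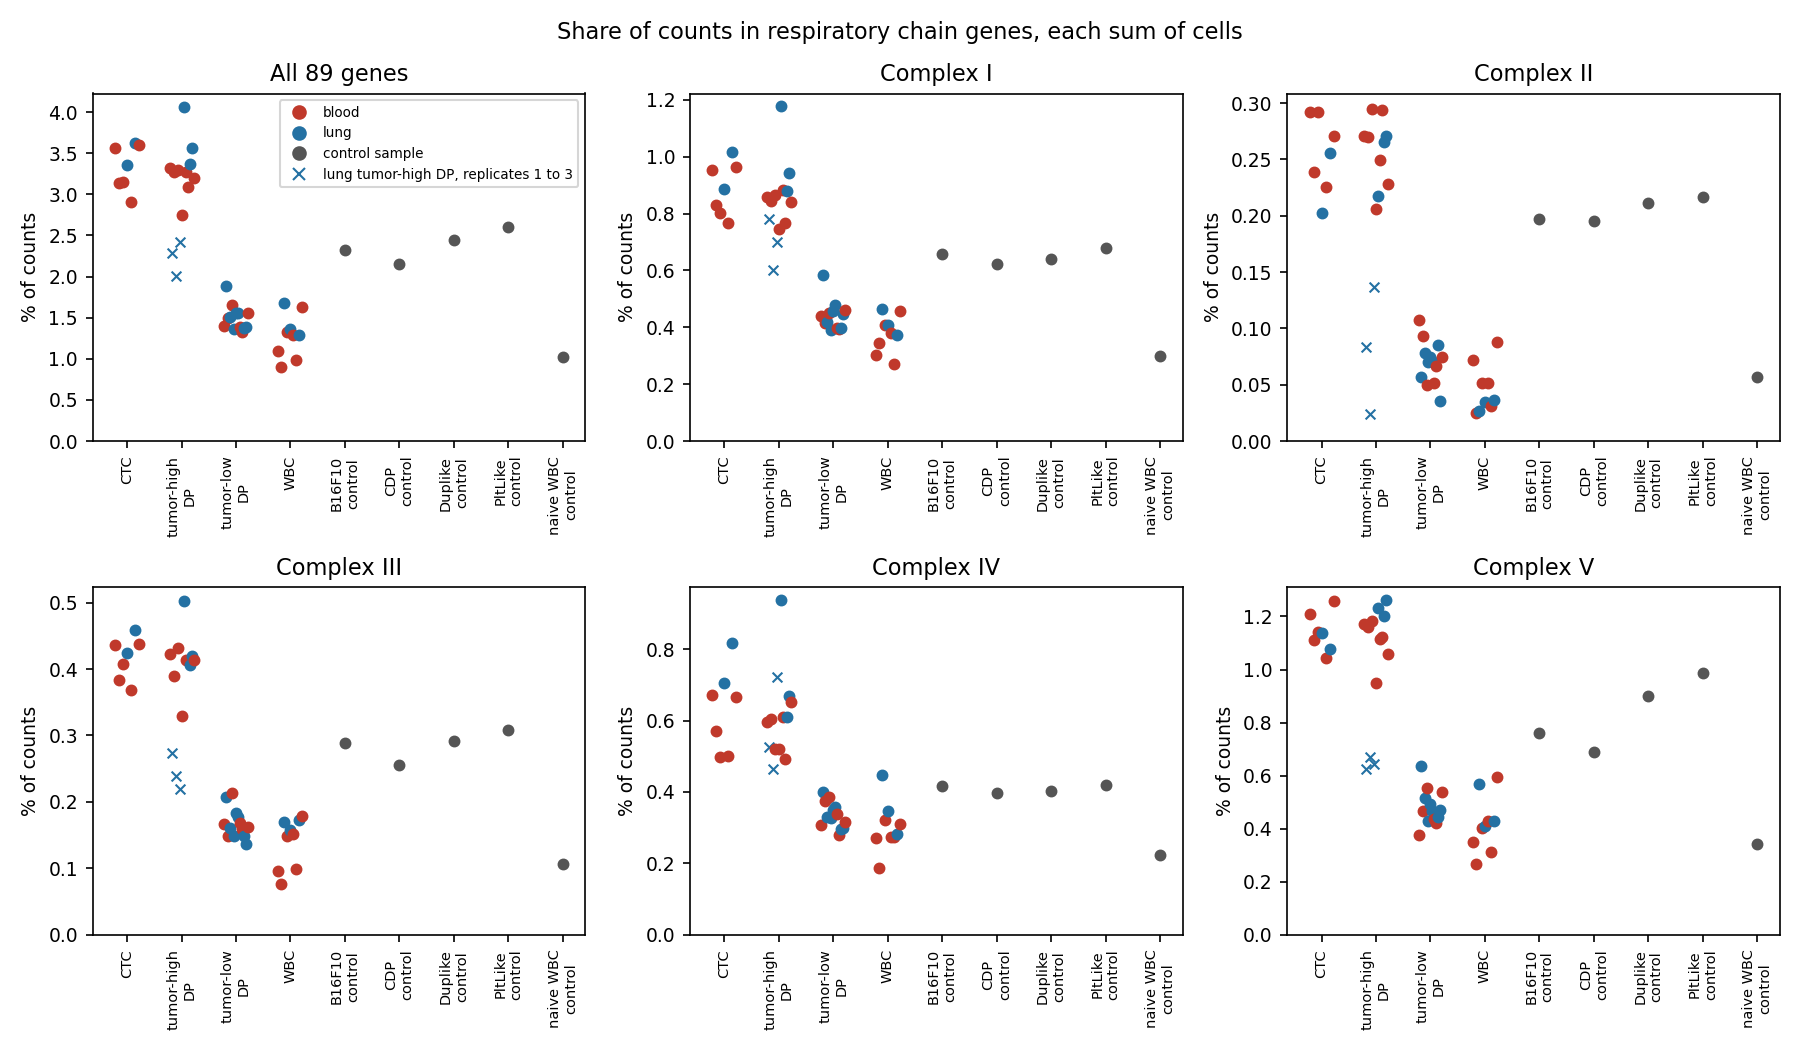
Share of all counts (percent, y axis) taken by the 89 respiratory genes and by each complex, for each state (x axis); points are sums of cells of 1 sample and tissue, blood red, lung blue, controls grey, and crosses the lung tumor-high DP sums of replicates 1 to 3. For all 89 genes the CTC sums lie between 2.91% and 3.63%, above all WBC sums (0.895% to 1.67%).

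Between CTC and WBC, 11 of 85 tested respiratory genes were higher in CTC and none was lower (edgeR quasi-likelihood test, sample as a block, Benjamini-Hochberg adjusted p under 0.05). Other fits called lower genes too: DESeq2's Wald test called 12, of which Cox6a2, Cox6b2 and Ndufa3 were lower in CTC, and edgeR without the block called 16, of which Cox6a2 and Ndufa1 were lower. Across all 12595 genes 26.6% were called, 16% higher and 10.6% lower. At an unadjusted p under 0.05 there were 22 respiratory genes, beside 37.8% of all genes. The median log2 difference of the 85 genes was 0.53, beside 0.74 over all genes tested, and 61 of them were above 0. These values use TMM factors, which set a trimmed and weighted mean of log ratios to 0. Scaled by library size alone, the medians were 1.38 and 1.51, and 48 genes were called, all higher in CTC, beside 32.1% of all genes. By complex, 2 of 36 genes were called in complex I, 2 of 4 in complex II, 3 of 9 in complex III, 2 of 18 in complex IV and 2 of 18 in complex V, with median log2 differences of 0.56, 1.62, 0.49, 0.36 and 0.51. Blood cells alone gave 22 calls (24.9% of all genes), lung cells alone 0 (0.754%), and sums of at least 5 cells 4 (9.44%), of which Sdha, Sdhb and Atp5po were among the 11. The count was 7 without replicate 1, 21 without replicate 2, 6 without replicate 3, 4 without replicate 5 and 5 without replicate 7. For these fits, DESeq2's Wald test and the fit without the block, the share of all genes called is not given.

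Complex II held the gene with the smallest p. Sdhb, the iron-sulfur subunit (chr4:140961203-140979193, mm10), was at 1014, 826, 857, 821 and 836 CPM in CTC of replicates 1, 2, 3, 5 and 6, and at 305, 306, 246, 121, 94.8 and 178 CPM in WBC of replicates 1 to 6. No WBC sample came near the lowest CTC sample. The log2 difference of Sdhb was 2.19 (SE 0.37, edgeR adjusted p = 9.72e-05), in the same direction in 5 of 5 samples that hold both classes. Sdha, the flavoprotein that oxidizes succinate, was at 388, 368, 614, 480 and 525 CPM in CTC and at 201, 25.9, 60.8, 174, 91.0 and 321 CPM in WBC. The lowest CTC sample lay above the highest WBC sample, and the log2 difference was 2.50 (SE 0.60, edgeR adjusted p = 0.00298). The membrane anchors of the complex differed less: Sdhc had a log2 difference of 0.64 and Sdhd of 1.06, and neither was called.

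In complex III, Cyc1 encodes cytochrome c1, which passes electrons on to cytochrome c. It was at 515, 530, 623, 452 and 584 CPM in CTC, and at 57.5, 259, 190, 66.6, 45.9 and 222 CPM in WBC, again without overlap. Its log2 difference was 2.21 (SE 0.51, edgeR adjusted p = 0.00231). The core protein Uqcrc1 (1.52, edgeR adjusted p = 0.0301) and the small subunit Uqcr10 (1.12, edgeR adjusted p = 0.0271) were also called. Uqcrc1 was at 566 CPM ± 67.8 (SD, n = 5) in CTC, whereas in WBC it spread from 46.1 to 562 CPM, and it was higher in CTC in 4 of 5 samples.

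In complex I, the large iron-sulfur subunit Ndufs1 was at 279, 235, 340, 235 and 328 CPM in CTC, against 136, 1.84, 43.0, 55.6, 35.3 and 111 CPM in WBC. The WBC values differed from each other far more than the CTC values, and the log2 difference of 2.09 (SE 0.78) passed narrowly (edgeR adjusted p = 0.0475). Ndufb5, an accessory subunit of the membrane arm, was at 222 CPM ± 19.2 (SD, n = 5) in CTC and 80.2 CPM ± 38.6 (SD, n = 6) in WBC (log2 difference 1.51, edgeR adjusted p = 0.0275). The catalytic subunit Ndufv1, which binds NADH, had a log2 difference of 1.18 with a 95% interval from -0.36 to 2.71 and was not called. Among the genes at 20 CPM or more the lowest difference was that of the accessory subunit Ndufa1, at -0.91 (edgeR adjusted p = 0.122). Cox6a2 and Cox6b2, isoforms of complex IV detected in few cells, lay lower still, at -8.13 and -6.90, and were not called.

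In complex V, the catalytic beta subunit Atp5f1b (chr10:128083273-128090391, mm10) was at 2300, 2413, 3022, 2166 and 2647 CPM in CTC and at 822, 1222, 1618, 1005, 636 and 2027 CPM in WBC. The groups did not overlap; the log2 difference was 1.24 (SE 0.32, edgeR adjusted p = 0.00547). Atp5po, part of the stalk that holds the catalytic head, had a log2 difference of 1.45 (edgeR adjusted p = 0.00269); its exons overlap those of a readthrough gene, so its reads are uncertain. The alpha subunit Atp5f1a was at 1036 CPM ± 110 (SD, n = 5) in CTC and 816 CPM ± 286 (SD, n = 6) in WBC, and was not called. In complex IV, Ndufa4, a subunit once assigned to complex I, was at 541, 475, 449, 576 and 525 CPM in CTC and at 282, 573, 207, 140, 146 and 242 CPM in WBC. The WBC value of replicate 2 lay within the CTC range; the log2 difference was 1.09 (SE 0.34, edgeR adjusted p = 0.0165). Cox5b was called too (0.94, edgeR adjusted p = 0.0240), although a near-identical processed pseudogene could share its reads. Cox4i1, a subunit that joins complex IV early in its assembly, was not called: it was at 637, 580, 730, 745 and 542 CPM in CTC and at 828, 934, 836, 429, 693 and 679 CPM in WBC, with a log2 difference of -0.08 (95% interval -0.55 to 0.40). Its sign turns with the scaling: by library size alone the difference was 0.73 and was called (edgeR adjusted p = 0.0282).

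**Figure D2:**
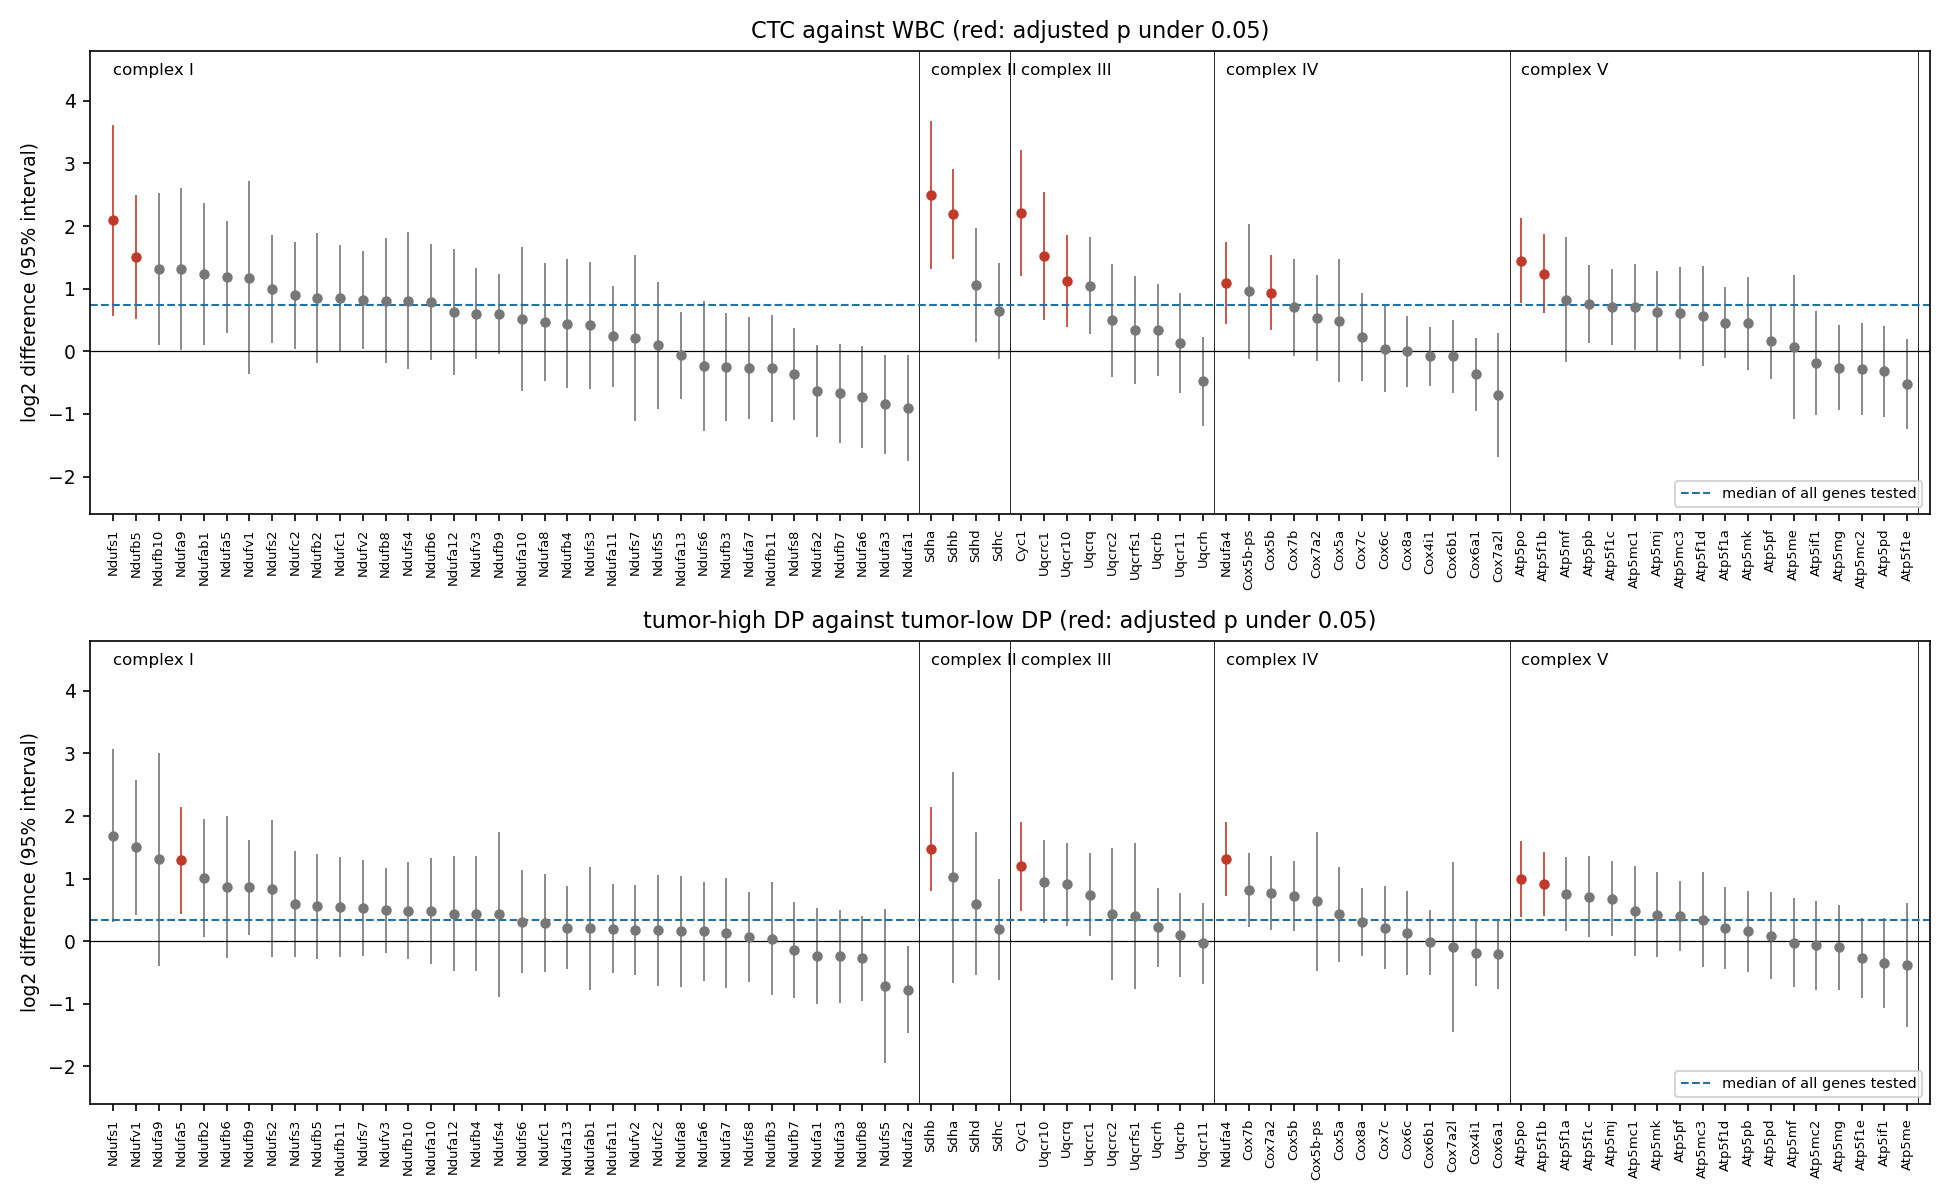
Log2 difference (y axis) of the tested respiratory genes by complex (x axis), CTC minus WBC and tumor-high minus tumor-low DP. The 95% intervals are built from an SE derived from edgeR's F value. Genes with an SE of 1.2 or more are not drawn. Red marks adjusted p under 0.05 and the dashed line the median of all genes tested (0.74 and 0.34). Sdhb, Cyc1, Atp5f1b, Atp5po and Ndufa4 are red in both panels.

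Levels were also compared over samples without a model. Of the 80 respiratory genes with a mean of at least 20 CPM, 13 were higher in every CTC sample than in every WBC sample (16.2%, beside 7.31% of all 8367 genes at that level): Atp5f1b, Atp5mc1, Atp5po, Cox7a2, Cyc1, Ndufab1, Ndufb5, Ndufb9, Ndufs1, Ndufv2, Sdha, Sdhb and Uqcr10. Only Ndufa3, an accessory subunit of complex I, was lower in every CTC sample, where 11.2% of all genes were. Ndufa3 was at 103 CPM ± 22.2 (SD, n = 5) in CTC and 199.9 CPM ± 39.8 (SD, n = 6) in WBC. By library size alone 53 of the 80 were higher without overlap and none was lower. That scaling also raised the median difference over all genes, and no share of all genes is given beside this count. Spread differed between the classes: the median SD of log2 levels over samples was 0.19 in CTC, 0.36 in tumor-high DP, 0.44 in tumor-low DP and 0.72 in WBC, and the widest WBC spread was that of Ndufs1 (2.21). The WBC sums also held fewer counts, 339 Mcounts in all against 1138 Mcounts for CTC.

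The tumor-high and tumor-low cells of the DP class differed from each other in several of the same genes. Tested over 81 respiratory genes, 6 were higher in tumor-high DP and none was lower (edgeR, adjusted p under 0.05), beside 17.7% of all 10900 genes called, 8.94% higher and 8.71% lower. The median log2 difference was 0.40, beside 0.34 over all genes, and 63 of 81 were above 0. By library size alone these medians were 0.97 and 0.88, and 27 genes were called, beside 19.5% of all. Without the 3 lung sums of few cells 23 were called, 22 higher and 1 lower, beside 30% of all, and the median of all genes was 0.73 beside 0.41 for the respiratory genes. The count was 16 without replicate 4, 3 without replicate 5, 3 without replicate 6, 2 without replicate 7 and 15 without replicate 8. These counts stand without the share of all genes called in the same fits. This comparison and that of CTC with WBC use different cells, but the DP and CTC cells come from the same samples.

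Sdhb lay between 537 and 980 CPM in tumor-high DP (median 854, n = 8) and between 162 and 353 CPM in tumor-low DP (median 258, n = 9). The groups did not overlap, and the log2 difference was 1.47 (SE 0.34, edgeR adjusted p = 0.00340), with the same direction in 8 of 8 samples. Cyc1 lay between 314 and 568 CPM (median 489) in tumor-high and between 111 and 248 CPM (median 176) in tumor-low DP, a log2 difference of 1.2 (SE 0.36, edgeR adjusted p = 0.0225). Atp5f1b lay between 1997 and 3224 CPM (median 2403) and between 699 and 1597 CPM (median 1147), a log2 difference of 0.92 (SE 0.26, edgeR adjusted p = 0.0153). Neither gene's groups overlapped. Without the 3 lung sums of few cells, tumor-high DP ran from 758 to 980 CPM for Sdhb and from 468 to 656 CPM for Cyc1. Ndufa4 had the smallest p, with 505 to 662 CPM (median 561.5) in tumor-high and 145 to 306.5 CPM (median 230) in tumor-low DP, a log2 difference of 1.31 (SE 0.30, edgeR adjusted p = 0.00328). The other called genes were Atp5po (1.00, edgeR adjusted p = 0.0256) and the complex I accessory subunit Ndufa5 (1.29, edgeR adjusted p = 0.0401), each higher in 8 of 8 samples. Of the 80 genes at 20 CPM or more, 8 were higher in every tumor-high than in every tumor-low DP sample, where 3.5% of all genes were: Atp5f1b, Cox7b, Cyc1, Ndufa4, Ndufa5, Ndufs1, Sdhb and Uqcr10. None was lower in every sample, where 5.05% of all genes were.

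Some members that were called between CTC and WBC were not called here. Ndufs1 had a log2 difference of 1.68 (SE 0.70, edgeR adjusted p = 0.105), with 131 to 384 CPM in tumor-high DP and 25.6 to 122 CPM in tumor-low DP. Those ranges did not overlap, and without the 3 lung sums, where Ndufs1 was at 0 to 122 CPM, the log2 difference was 2.10 (SE 0.46, edgeR adjusted p = 0.00220). Sdha ranged from 263 to 678 CPM in tumor-high and from 14 to 476 CPM in tumor-low DP, an overlap, with a log2 difference of 1.02 and a 95% interval from -0.66 to 2.70. Of the 81 genes, 18 were below 0. The lowest was Ndufa2, an accessory subunit of complex I, with 221 CPM ± 162 (SD, n = 8) in tumor-high and 316 CPM ± 111 (SD, n = 9) in tumor-low DP. Its log2 difference of -0.77 (SE 0.35, edgeR adjusted p = 0.147) was lower in 7 of 8 samples. Without the 3 sums, in which it reached 1065 CPM, Ndufa2 was lower in tumor-high DP by the test as well (-0.99, SE 0.28, edgeR adjusted p = 0.0125). Cox4i1 was not called, with a median of 732 CPM in tumor-high and 673 CPM in tumor-low DP and a log2 difference of -0.19 (95% interval -0.72 to 0.33); by library size alone the sign turns, to 0.38.

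**Figure D3:**
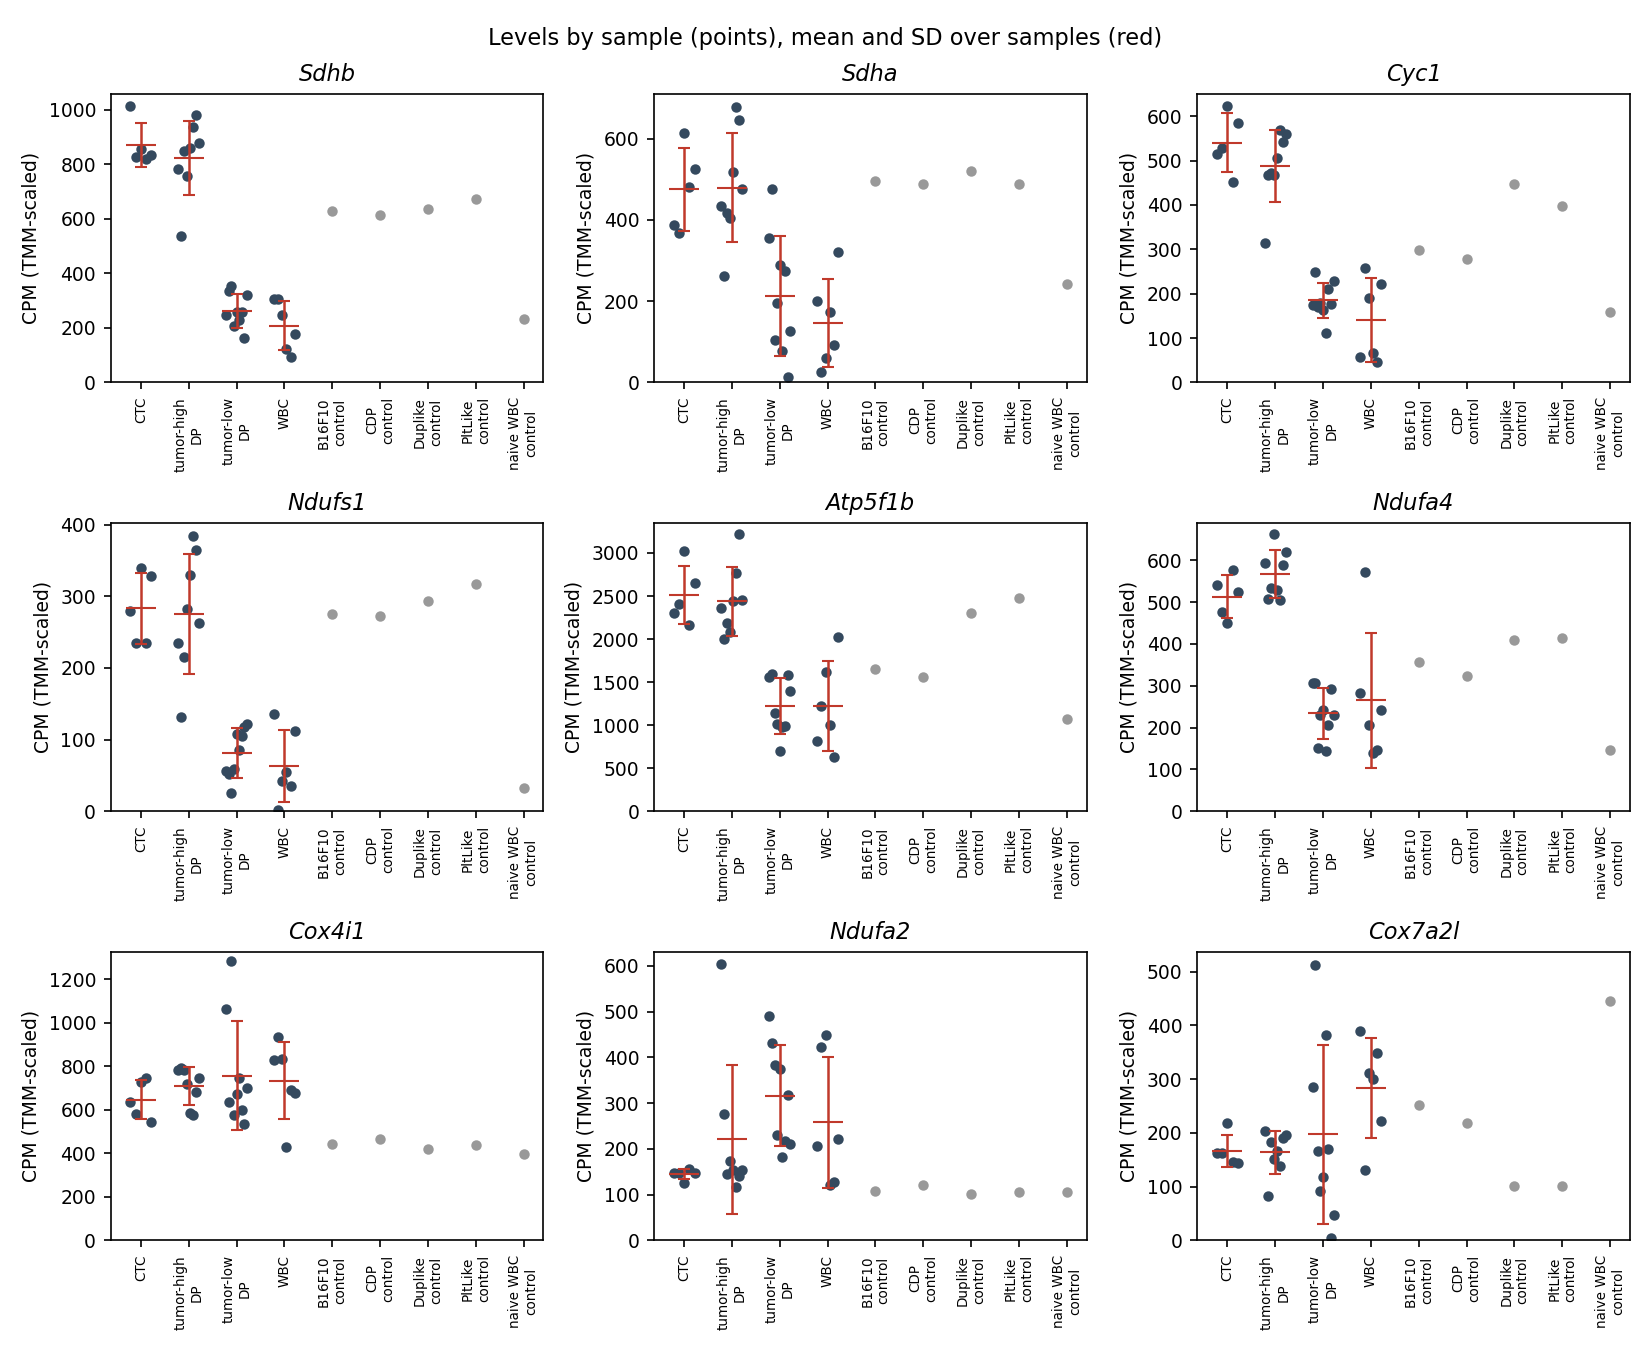
Level of 9 respiratory genes (TMM-scaled CPM, linear axis, y axis) in each sample by state (x axis). Points are samples and red marks give the mean ± SD. The Sdhb points of CTC (821 to 1014 CPM) stand above those of WBC (94.8 to 306 CPM), whereas the Cox4i1 points of CTC, both DP states and WBC overlap.

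The DP class was also compared as sorted, with tumor-high and tumor-low cells together. Against WBC, 6 of 85 respiratory genes were higher in DP and none was lower (edgeR, adjusted p under 0.05), beside 20.5% of all genes (17.6% higher, 2.91% lower). At an unadjusted p under 0.05 there were 17, beside 33.4% of all. The 6 genes were Sdhb (log2 difference 1.68), Sdha (2.28), Cyc1 (1.69), Atp5po (1.13), Atp5f1b (0.89) and Ndufb5 (1.31), each in 5 of 5 samples. Blood cells alone gave 22 calls (24.8% of all genes), library size alone 34 (25.5%), lung cells alone 0 (0%) and sums of at least 5 cells 0 (2.17%). DESeq2's Wald test also called 6: Sdhb, Sdha and Cyc1 again, and Ndufa4l2, Ndufa6 and Ndufb7, whose direction in that test is not given here. By edgeR in blood cells alone Ndufa6 (-0.58) and Ndufb7 (-0.29) were below 0 and Ndufa4l2 (8.72) above it, none of them called. The count was 3 without replicate 1, 10 without replicate 2 and 2 without replicate 5. These counts and that of DESeq2 are given without the share of all genes called in those fits. The median of the 85 genes was 0.36, beside 1.17 over all genes. Against CTC none of 85 was called, beside 5.85% of all 12595 genes, all of them higher in DP. At an unadjusted p under 0.05 there were 3 respiratory genes, beside 11.6% of all, and DESeq2 called 3: Cox6a2, Cox6b2 and Ndufa4l2, isoforms detected in few cells. The median respiratory gene was at -0.09 against CTC, beside 0.21 over all genes. The comparisons with WBC and with CTC use the same DP sums and are not independent.

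Within like states no respiratory gene was called. Tumor-high DP against CTC gave none of 83 respiratory genes and none of 11884 genes in all (0%; edgeR). At an unadjusted p under 0.05 there were 0 respiratory genes and 3.79% of all, and DESeq2 called 0 respiratory genes. The median respiratory gene differed by -0.08, beside -0.12 over all genes. The intervals leave room for moderate differences: Sdhb at -0.32 had a 95% interval from -0.97 to 0.32, Atp5f1b at -0.35 from -0.73 to 0.04, and Ndufa4 at -0.08 from -0.57 to 0.40. Without the 3 lung sums of few cells the median was 0.02 and none was called. Tumor-low DP against WBC likewise gave none of 81 and none of 9759 genes in all (0%; edgeR), with 0 respiratory genes at an unadjusted p under 0.05, beside 8.95% of all genes, and 0 by DESeq2. Its median was 0.04, beside 0.90 over all genes. Sdhb at 0.40 had a 95% interval from -0.59 to 1.40 and Atp5f1b at -0.09 from -0.84 to 0.67. Wider still was Sdha, at 2.06 with an interval from -0.73 to 4.85. Over samples, none of the 80 genes at 20 CPM or more stood apart without overlap in either comparison, where 0.0292% of all genes were higher and 0.321% lower in CTC than in tumor-high DP, and 0.0736% higher and 0.0614% lower in tumor-low DP than in WBC.

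In tumor-high cells, most respiratory genes had higher values in lung than in blood, and the size of the difference went with transcript length. With all sums, none of 83 respiratory genes was called between lung and blood in CTC and tumor-high DP, where 0.0337% of all 11884 genes were (edgeR, adjusted p under 0.05). At an unadjusted p under 0.05 there were 18, beside 8.99% of all, and DESeq2 called 1, Ndufa3. Of the 83, 56 were above 0, and the median was 0.34, beside -0.93 over all genes. By library size alone that median was 0.07. Without the 3 lung sums of few cells, 74 of 82 were higher in lung, with a median of 0.49 beside -0.03 over all genes, and 56 had an unadjusted p under 0.05, beside 12% of all genes. Of these 56, Sdha and Atp5f1a were lower in lung and the others higher. None passed the adjustment over all genes, where the smallest adjusted p of a member was 0.0778, that of Cox8a.

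In tumor-high DP the share of counts in respiratory genes was 2.75% in blood and 4.07% in lung in replicate 5, and 3.09% and 3.37% in replicate 7; in replicates 1, 2 and 3, with the lung sums of few cells, the difference lung minus blood was -1.03, -1.27 and -0.873 percentage points. Cox8a is a small subunit of complex IV. In CTC of replicates 3 and 5 it was at 433 and 358 CPM in blood and at 743 and 740 CPM in lung, and in tumor-high DP of replicates 5 and 7 at 476 and 355 CPM in blood and at 761 and 494 CPM in lung. Lung was the higher in each of these 4 pairs. The log2 difference without the 3 sums was 0.74 (SE 0.12). Uqcr10 (0.93), Ndufa6 (1.05), Ndufa3 (0.91), Cox6a1 (0.88) and Cox7b (0.81) were of like size, each with an edgeR adjusted p of 0.0798. Sdhb (0.02), Cyc1 (-0.12), Ndufs1 (-0.02) and Atp5f1b (-0.01) lay near 0, and Sdha (-0.36) and Atp5f1a (-0.33) were below it. The 27 shortest transcripts (315 to 547 bases) had a median of 0.68, the next 27 (550 to 955 bases) 0.62, and the 28 longest (971 to 3171 bases) 0.25. Across the 82 genes Spearman's rho of the difference with length was -0.54, and with all sums it was -0.53; genes share libraries and are not independent replicates. Between CTC and WBC rho was 0.35 and between tumor-high and tumor-low DP 0.38, so that longer transcripts had the larger differences there. Whether transcript length or RNA quality plays a part in any of these differences was not tested. By complex the lung medians were 0.64 for IV, 0.49 for I, 0.45 for V, 0.35 for III and 0.06 for II.

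**Figure D4:**
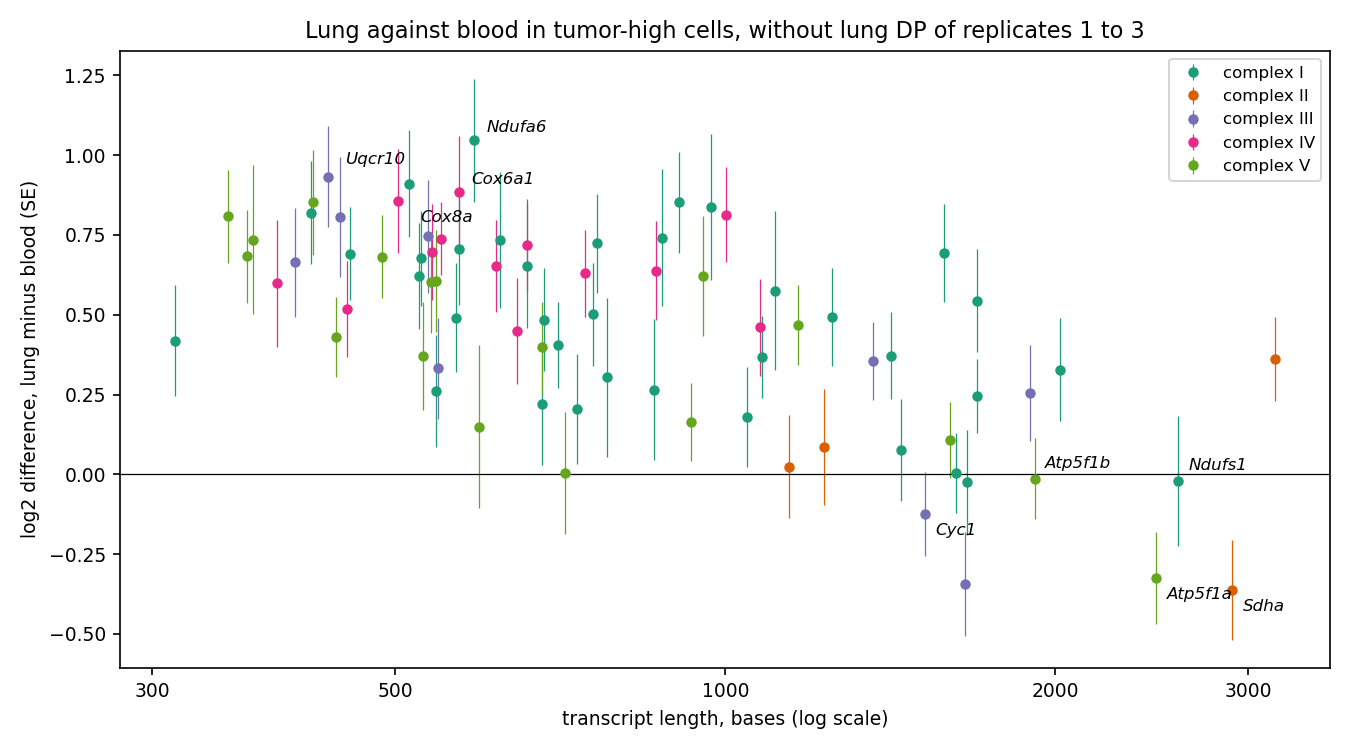
Log2 difference lung minus blood in tumor-high cells (y axis, without the lung DP sums of replicates 1 to 3) against transcript length in bases (x axis), by complex. Each respiratory gene with an SE below 1.2 is 1 point. Most points lie above 0, as do 74 of the 82 tested genes, and the 28 longest transcripts have the lowest median (0.25).

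Tumor-low DP cells also had higher values in lung for most respiratory genes, without a single call. Of 82 genes 73 were above 0, with a median of 0.52 beside -0.05 over all genes, but none was called, beside 0.13% of all 10020 genes (edgeR), and 0 had an unadjusted p under 0.05, beside 3.86% of all. DESeq2 called 1, Cox7a1. By library size alone 56 of 82 were above 0, with a median of 0.11 beside -0.45. The genes with the smallest p were Ndufa9 (1.99), Atp5pb (0.96), Atp5f1b (0.78), Uqcrc2 (1.69) and Cox7a2l (1.11), each with an edgeR adjusted p of 1. The share of counts in respiratory genes was 1.39% in blood and 1.88% in lung in replicate 1, 1.5% and 1.5% in replicate 2, 1.65% and 1.37% in replicate 3, and 1.32% and 1.37% in replicate 7. Lung was higher in 3 of these 4 pairs, in replicate 2 by 0.0062 percentage points only, and lower in replicate 3. Macrophage genes had higher sums in lung in each of these 4 pairs. Over all sums of tumor-low DP, 10 alveolar macrophage genes summed to 0.427 to 4777 CPM in blood and 623 to 23402 CPM in lung, and 12 monocyte and macrophage genes to 18528 to 39870 CPM in blood and 43227 to 93047 CPM in lung. Their part in the result was not tested.

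The control samples, of which there is 1 each, are given as values without a test. Their share of counts in respiratory genes was 2.32% in B16F10, 2.16% in CDP, 2.44% in Duplike, 2.61% in PltLike and 1.03% in naive WBC. The 4 controls whose cells were tumor-high thus lay below the lowest CTC sample (3.14%) and above the highest WBC sample (1.63%), and naive WBC lay just below the lowest WBC sample of tumor-bearing mice (1.09%). Of the 80 respiratory genes at 20 CPM or more, 61 in B16F10, 65 in CDP, 68 in Duplike and 56 in PltLike were below every CTC sample, where 21.0%, 20.7%, 12% and 12.9% of all genes were; in naive WBC it was 68, beside 50.3% of all. The median log2 ratio to the CTC mean was -0.52, -0.63, -0.52 and -0.39. Sdhb was at 627 CPM in B16F10, 613 in CDP, 637.5 in Duplike and 672 in PltLike, all below the 821 CPM of the lowest CTC sample, and at 234 CPM in naive WBC, within the range of WBC of tumor-bearing mice. Sdha did not follow this: its 489 to 520 CPM in those 4 controls lay inside the CTC range of 368 to 614 CPM. Atp5f1b was at 1652 and 1557 CPM in B16F10 and CDP, below every CTC sample, and at 2308 and 2472 CPM in Duplike and PltLike, inside their range. Each control is its own batch by the labels, so batch and condition cannot be told apart. Naive WBC cells had a median of 1.05 Mcounts and 49 detected respiratory genes per cell, against 78 in WBC of tumor-bearing mice and 80 in the other states.

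Per kilobase of transcript, the order of the genes changed between tumor and white blood cells. In CTC the highest levels per kilobase were those of Atp5f1b (1310 CPM per kb), Ndufa4 (1136), Atp5po (1080), Uqcrq (942) and Cox4i1 (868). Tumor-high DP had the same genes in the first and second place, at 1274 and 1255 CPM per kb. In WBC the first places were held by the complex IV subunits Cox4i1 (984), Cox8a (975) and Cox6a1 (789), and in tumor-low DP by the same 3 genes (1017, 813 and 746). There Atp5f1b came in rank 7 with 637 CPM per kb, and in WBC in rank 6 with 638. The TMM-scaled levels of Cox4i1 itself overlapped between all 4 states. By library size alone it was called higher in CTC than in WBC (log2 difference 0.73, edgeR adjusted p = 0.0282). What moved its rank was not tested.

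Alternative isoforms were rare next to the common ones. Cox4i1, Cox6a1, Cox6b1, Cox8a and Ndufa4 made up at least 98.47% of the summed CPM per kilobase of their isoform set in each of the 4 states. The isoform seen in most cells was Cox7a1, known from heart and skeletal muscle: at 10 counts or more it was present in 11 of 43 CTC (25.6%, exact 95% binomial interval 13.5 to 41.2%), 85 of 279 tumor-high DP (30.5%, 25.1 to 36.2%), 24 of 171 tumor-low DP (14%, 9.20 to 20.2%) and 2 of 43 WBC (4.65%, 0.57 to 15.8%). The tumor-high cells were also sequenced to a greater depth, and the part of depth in these shares was not tested. Cox7a1 still gave only 0.609% of the pair with Cox7a2 in CTC and 6.18% ± 8.1 (SD, n = 9) in tumor-low DP. The muscle isoform Cox8b was present in 1 of 43 CTC, 17 of 279 tumor-high DP (6.09%), 0 of 171 tumor-low DP and 0 of 43 WBC. Ndufa4l2, known as a hypoxia-induced gene, was present in 4 of 22 B16F10 control cells (18.2%, exact 95% binomial interval 5.19 to 40.3%), 1 of 43 CTC, 15 of 279 tumor-high DP (5.38%) and in 1 tumor-low DP cell, a lung cell of replicate 2 that gave 99.7% of its counts there. The testis isoform Cox6b2 was present in 13 of 171 tumor-low DP (7.60%) and 6 of 279 tumor-high DP (2.15%). The tumor-high DP counts include lung sums of few cells: 2 cells with Ndufa4l2 in replicate 1 and 1 in replicate 2. For Cox6b2, 1 cell in the lung sum of replicate 3 gave 664 of the 1032 counts in tumor-high DP. Cox4i2 reached 10 counts in 1 tumor-high DP cell, 3 tumor-low DP cells and 1 WBC, Cox7b2 and Cox8c had 4 and 2 counts over the cells of these 4 states, and Ndufb11b had none. Intervals cover counting error only: they pool cells over samples, treat them as independent and leave out differences between samples. For example, Cox7a1 was present in 31 of 74 tumor-high DP cells from blood in replicate 6 and in 3 of 21 in replicate 3.

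**Figure D5:**
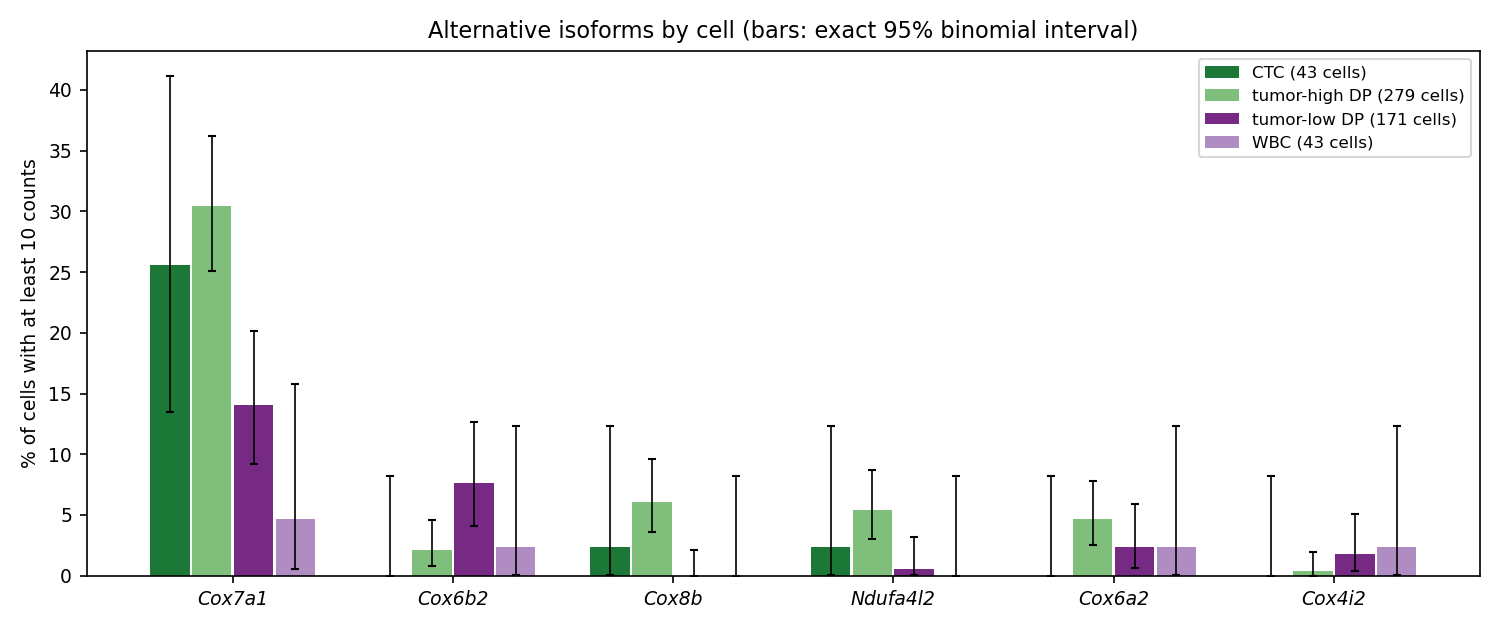
Percent of cells with at least 10 counts (y axis) of each alternative isoform by state (x axis), with exact 95% binomial intervals over cells. Cox7a1 is the tallest bar in CTC, tumor-high DP and tumor-low DP (25.6%, 30.5% and 14%).

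Paralogs with broad expression shifted against each other. Atp5mc1, Atp5mc2 and Atp5mc3 encode the same mature c subunit of the ATP synthase ring. Atp5mc1 gave 41.4% of their summed CPM per kilobase of transcript in CTC, 42.6% in tumor-high DP, 37.1% in tumor-low DP and 31.9% in WBC. Atp5mc2 took 29.6%, 30.3%, 36.6% and 43.6% in the same order, and Atp5mc3 29.0%, 27.1%, 26.3% and 24.5%. Cox7a2l, also per kilobase, gave 22.6% of its sum with Cox7a2 in CTC, 20.4% in tumor-high DP, 29.7% in tumor-low DP and 40.1% in WBC. Between CTC and WBC its log2 difference was -0.70 with a 95% interval from -1.70 to 0.30, and it was not called. The B16F10 and CDP controls had 41.9% and 40.6% Cox7a2l, Duplike had 21.6%, PltLike 20.6% and naive WBC 60.4%. WBC samples of tumor-bearing mice ran from 19.2% to 60.7%. These shares are descriptions over samples and were not tested.

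Other genes of mitochondrial energy metabolism were counted in the same fits. Between CTC and WBC, 5 of 18 biogenesis regulators were higher in CTC and none was lower, and the smallest adjusted p was that of Ppargc1a, the coactivator PGC-1α, with mean levels of 212 CPM in CTC, 194 in tumor-high DP, 24.2 in tumor-low DP and 1.27 in WBC (log2 difference CTC minus WBC 7.37, edgeR adjusted p = 2.6e-05). Among 22 mobile carriers and exchange proteins 5 were higher and 1 was lower. The ADP/ATP carrier Slc25a4 was higher (2.38; 1004 CPM in CTC, 219 in WBC), and the uncoupling protein Ucp2 was lower (-7.94; 10.7 CPM in CTC, 2427 in WBC). Assembly factors were higher for complex I in 2 of 15 genes (Acad9 and Ndufaf5), for complexes II, III and V in 4 of 13 and for complex IV in 3 of 22 (Cox15, Lrpprc and Cox10), with none lower. Of the citric acid cycle and pyruvate enzymes 3 of 24 were higher (Pcx, Dlst and Idh3a), and of the mitochondrial ribosomal proteins 5 of 78. Of the 13 genes encoded by mitochondrial DNA none was higher and mt-Nd3 was lower (-3.01). Each share is to be read beside the 26.6% of all genes called in that comparison.

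The same lists were counted between tumor-high and tumor-low DP, beside 17.7% of all genes. Slc25a4 (1.70) and Cycs, which encodes cytochrome c (1.30), were higher and Ucp2 (-5.36) was lower. Of the 18 biogenesis regulators Ppargc1a (4.88) and the mitochondrial helicase Twnk were higher, and of the 24 citric acid cycle and pyruvate enzymes 2 were. None of the 78 mitochondrial ribosomal proteins was called. Of the 13 genes of mitochondrial DNA 4 were lower in tumor-high DP: mt-Nd3 (-2.46), mt-Nd6 (-1.25), mt-Nd1 (-0.79) and mt-Nd4 (-0.76). The median of the 13 was -0.68 on the TMM scale and -0.13 by library size alone, while the nuclear genes had 0.40 and 0.97. Against CTC, DP cells differed in these lists only in Ucp2, which was higher (5.08).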

How the data were processed

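RNA of 648 single cells from 14 samples was measured with Smart-seq2, per the labels' protocols. The deposited values are raw counts of reads per gene, made by the authors with Trim Galore, HISAT2, SAMtools and featureCounts on mm10, per the submitters' processing notes, which give no versions; Smart-seq2 reads carry no molecular identifiers, so PCR copies are counted. The counting mode for strand, overlaps and repeated reads is not given in the sources used here. Cells were not filtered and no doublet caller was run. Counts were summed per class, state, tissue and sample (at least 2 cells) and tested over all genes with edgeR 4.0.16 in R 4.3.3 (TMM factors, filterByExpr with a minimum count of 10, quasi-likelihood test, sample as a block, tissue as a term, Benjamini-Hochberg over all genes, threshold 0.05). The sample is a block because the sums compared come from the same sample; deviations of sums of the same sample had a median correlation of 0.03, and of different samples -0.003. Levels are TMM-scaled CPM, and shares are of unscaled counts. Alternatives used DESeq2 1.42.0, other scalings and filters, and single samples left out. Script steps were tested on simulated data. The genes and lists were chosen with earlier results of these data known. Named are, per comparison, up to 6 called genes with the largest difference in each direction, or where fewer than 5 were called the 5 with the smallest p, plus isoform pairs, the complex II genes, Cyc1, Cox5a, Cox5b and catalytic subunits; other genes named in counts, ranks or as the exception were chosen after their values were seen.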

Additional observations from a re-analysis of the deposited data

Results flagged for a closer look

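Of 76 groups of 4 to 10 samples examined, 9 held a sample whose gap to its nearest neighbour exceeded Dixon's critical value, where chance gives about 1 in 20. Among CTC, Sdhb was at 1014 CPM in replicate 1 and at 821 to 857 CPM in the others. Cox6a1 was at 434 CPM in replicate 5 of CTC, against 270 to 306 CPM. In CTC of replicate 3, Ndufa2 was at 125 CPM, against 147 to 155 CPM in the others, and Cox7a2l at 218 CPM, against 144 to 162 CPM. In tumor-high DP of replicate 1, whose lung sum holds few cells and few melanocyte transcripts, Cyc1 was at 314 CPM (others 467 to 568 CPM) and Ndufa2 at 604 CPM (others 117 to 277 CPM). Cox6a1 was at 692 CPM in tumor-low DP of replicate 1, against 251 to 469 CPM. In WBC, the share of counts in complex V was 0.595% in replicate 6, against 0.348% to 0.427%, and Ndufa4 was at 573 CPM in replicate 2, against 140 to 282 CPM.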

How the results depend on the processing

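Counts of called respiratory genes depended on scaling and on which cells entered. They are given here without the share of all genes called in the same fit, so they do not show whether other genes changed likewise. For CTC against WBC (11), DESeq2's size factors in edgeR gave 7, library size alone 48, sums of at least 5 cells 4, blood cells alone 22 and lung cells alone 0; leaving out samples in turn gave 4 to 21. For DP against WBC (6) the same settings gave 3, 34, 0, 22 and 0, and leaving out samples 2 to 10. For tumor-high against tumor-low DP (6) they were 13, 27 and 31 for the first 3 settings, 3 without the low-count filter, 20 with DESeq2's Wald test, 26 with states from Ward clustering, 23 without the 3 lung sums of few cells, and 2 to 16 when samples were left out; DESeq2's size factors, library size alone, sums of at least 5 cells, the Wald test, Ward states and the fit without the 3 sums each kept all 6 genes. Without the replicate block 16 were called for DP against WBC, 16 for CTC against WBC and 13 for tumor-high against tumor-low DP. DESeq2's Wald test called 6 for DP against WBC, of which 3 were among the main 6. It called 3 for DP against CTC and 1 in each comparison of lung with blood. Cox4i1 changed sign. Between CTC and WBC it was 0.73 by library size alone, 0.072 without the low-count filter, 0.15 with sums of at least 5 cells, 0.021 in blood, 0.47 in lung and -0.23 to 0.015 with samples left out. Between tumor-high and tumor-low DP it was 0.015 with DESeq2's size factors, 0.015 with the Wald test, 0.38 by library size alone and -0.33 to 0.055 with samples left out. Of the values of named genes under an alternative, 776 kept direction and call status, 111 lost the call, 13 gained it and 11 changed sign. The 776 include genes called in neither fit, which had no call to lose, so they do not measure how many calls were kept. The causes were not tested. Shares of counts taken as the median over cells were 1.38% in tumor-low DP, 2.28% in B16F10, 2.08% in CDP, 2.49% in Duplike, 2.61% in PltLike and 0.906% in naive WBC. Library size alone, lung cells alone and leaving out the 3 sums were chosen after seeing the data. Depth limits WBC most: 43 cells and 339 Mcounts (mega-counts).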
